A study of Mus musculus with 6 samples.

Results

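The Msx and Dlx genes of the mouse palate were examined as a family of 10 genes, namely Msx1, Msx2, Dlx1 to Dlx6 and the antisense transcripts Dlx1as and Dlx6os1. They were chosen by family name and matched by symbol to the Ensembl identifiers of the count tables. All 10 were found among 56691 identifiers and all 10 passed the filter on low counts. The data were bulk RNA-seq of the secondary palate of C57BL/6J mice at E14.0 (embryonic day 14.0), from 3 libraries of the most anterior of 3 equal parts of the palatal shelves and 3 libraries of the most posterior part, with no mutation or treatment named for either region. The study used these libraries to compare the regions that its single-cell data had told apart. The libraries are called anterior and posterior replicates 1 to 3 below.

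Msx and Dlx genes encode transcription factors with a homeodomain, the DNA-binding fold that a homeobox sequence codes for. Msx proteins act mainly as repressors in the mesenchyme of the face, teeth, skull and limbs, where BMP ligands induce Msx1 and Msx2, and mice without Msx1 have a cleft palate and arrested teeth. The Dlx genes lie in the genome as pairs that face each other and share enhancers, and their combinations pattern the upper and lower jaw, with Dlx5 and Dlx6 giving the lower jaw its identity. Antisense transcripts start within the Dlx1/Dlx2 and Dlx5/Dlx6 pairs, and the one at Dlx6, also known as Evf2, takes part in the control of its neighbours in the forebrain.

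Values are counts scaled to a common library size (CPM, per 1000000 reads) after TMM normalization of the reverse-stranded read counts, which added up to between 11378736 and 15172733 reads per library, so that 3 counts, the most that a count of 0 allows, corresponded to between 0.198 and 0.264 CPM before that normalization. Differences are log2 fold changes of posterior over anterior with their standard errors (SE), and a gene was called where the adjusted p-value of edgeR's quasi-likelihood test over 15673 genes was below 0.05. The study describes the libraries as biologically independent samples, and the labels do not say whether each came from 1 embryo or a pool. Posterior replicates 2 and 3 stood apart from the rest, with 6.12% and 5.94% of reads mapping to several places against 8.45% to 8.77% elsewhere, and leaving out posterior replicate 1 raised the number of genes called from 1169 to 7119. In bulk tissue, fewer cells of a type and less RNA per cell cannot be told apart.

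The coding stretches below show how far the sequence itself separates Dlx1 and Dlx2, a pair whose ratio separated the regions. Each is 180 bases of coding sequence from GENCODE M21 (GRCm38), read 5′ to 3′ on the strand of the gene, namely the in-frame stretch of each Dlx gene with the highest identity to a stretch of Msx1 that was itself placed by its identity to Msx2. The stretches overlap the homeobox but were not placed at its ends, so the identities are not those of the whole homeobox. The windows of all 6 Dlx genes held the codons of a homeodomain's recognition helix (Trp, Phe, any codon, Asn, Arg or Lys, Arg). Capitals mark the bases that differ between the 2 genes. The windows run from exon 2 to exon 3 of 3, within chr2:71531046-71532332 on the plus strand for Dlx1 and chr2:71544856-71545494 on the minus strand for Dlx2, spans that include the intron.
Dlx1: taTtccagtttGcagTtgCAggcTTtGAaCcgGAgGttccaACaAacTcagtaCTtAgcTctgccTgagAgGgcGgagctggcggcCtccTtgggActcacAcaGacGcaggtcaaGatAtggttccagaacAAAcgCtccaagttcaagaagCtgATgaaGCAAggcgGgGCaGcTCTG
Dlx2: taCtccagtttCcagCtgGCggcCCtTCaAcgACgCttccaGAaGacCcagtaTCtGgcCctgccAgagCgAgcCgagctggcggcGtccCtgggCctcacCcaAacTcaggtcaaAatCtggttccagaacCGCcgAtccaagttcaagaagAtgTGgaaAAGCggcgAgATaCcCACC

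Dlx1 and Dlx2 differed at 52 of these bases (71.1% identity), and Dlx windows were between 63.3% and 78.9% identical to each other. Over whole transcripts the longest stretch without a mismatch was 23 bases between Dlx genes. Read length is not given in the sources used here.

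Of the 10 members, 5 were called, against 7.46% of all genes tested. Of these, 4 were called as higher in the anterior palate (Msx1, Dlx3, Dlx4 and Dlx5), against 2.59% of all genes tested, and 1 was called as higher in the posterior palate (Msx2), against 4.87% of all genes. The other 5 were not called. Dlx4 is in these counts and the next one, although it passed the filter on low counts only through the anterior libraries, where it was high. Where every library had to reach 10 counts, which leaves out Dlx4 and Dlx1as, 4 members were called, 3 of them higher in the anterior palate. In that setting 843 genes were called in all. CPM did not overlap between the regions for 7 of the 10, every coding member except Dlx2, against 28% of all genes tested. Of these 7, Dlx1 and Dlx6 were not called. The exact permutation test of a single gene with 3 libraries against 3 cannot give a p-value below 0.1, and each of the 7 genes reached that value.

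**Figure D1:**
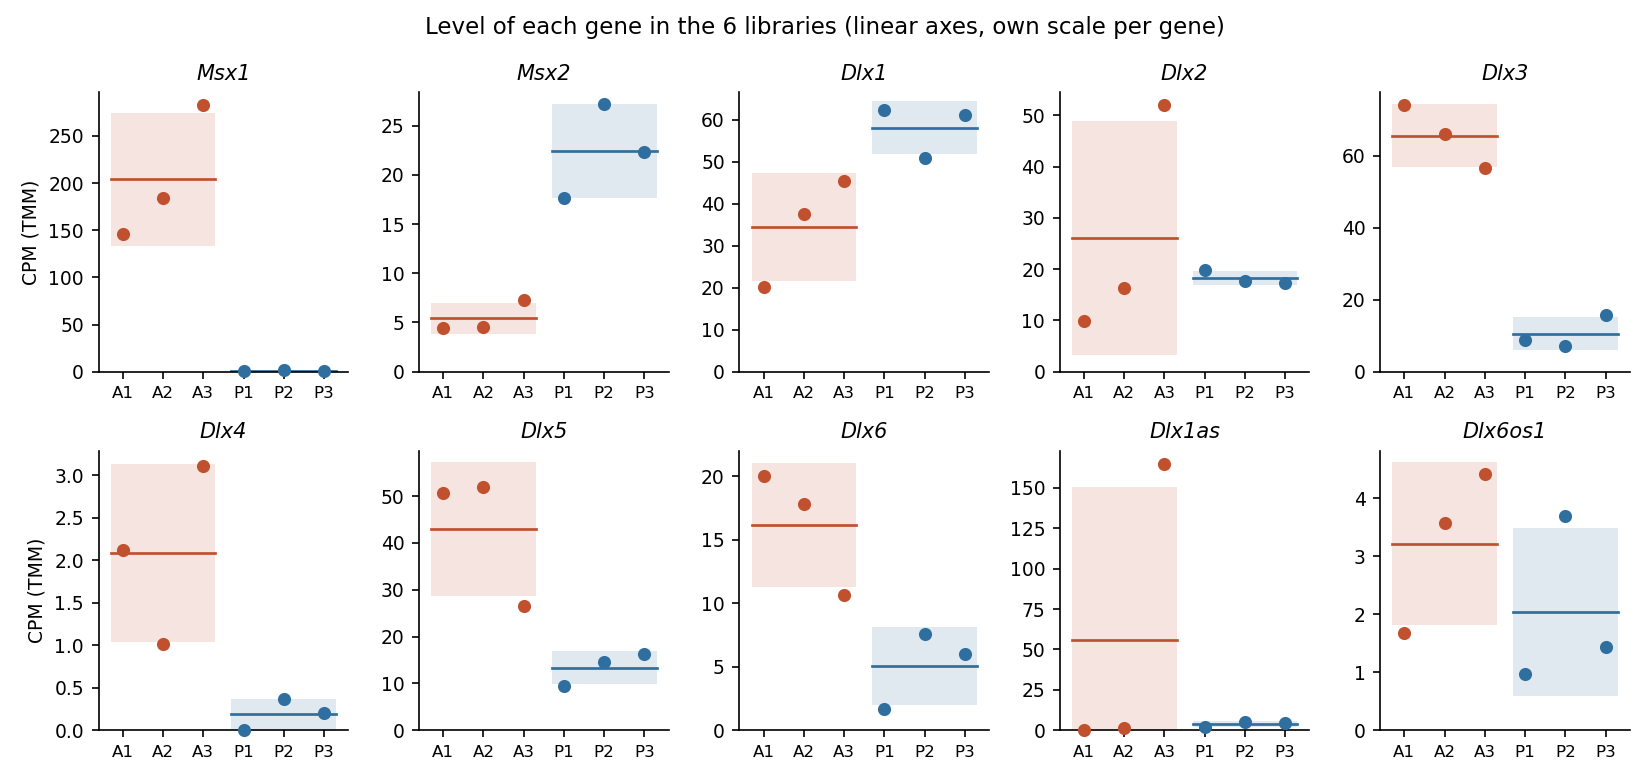
CPM of each of the 10 genes in the 3 anterior (A1 to A3, red) and 3 posterior (P1 to P3, blue) libraries, on a linear axis with its own scale for each gene. Points are libraries, lines are means and shaded bands are 1 SD (n = 3), ending at 0 where the band would go below it. Msx1, Dlx3, Dlx4, Dlx5 and Dlx6 are higher in every anterior library, Msx2 and Dlx1 in every posterior library, and Dlx1as is high in A3 alone.

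Msx1 (ENSMUSG00000048450.11, chromosome 5, 37820485 to 37824583, minus strand of GRCm38) had the largest fitted difference of the members. In anterior replicates 1, 2 and 3 it had 145.5, 184 and 282.5 CPM. In posterior replicates 1, 2 and 3 it had 1.05, 1.37 and 1.03 CPM, which rest on 14, 19 and 15 reads and lie above the limit that a count of 0 allows. Every anterior library exceeded every posterior library by over 2 orders of magnitude, and the spread within a region was small beside that gap, with a highest-to-lowest ratio of 1.94 among the anterior and 1.34 among the posterior libraries. The means were 204 ± 70.6 CPM (SD, n = 3) and 1.15 ± 0.193 CPM (SD, n = 3), a fitted difference of 176-fold (log2 fold change -7.46 ± 0.34 SE, edgeR adjusted p = 0.000124).

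Msx2 (ENSMUSG00000021469.10, chromosome 13, 53466884 to 53473074, minus strand) differed in the opposite direction. It had 4.48, 4.58 and 7.27 CPM in anterior replicates 1, 2 and 3, and 17.7, 27.2 and 22.35 CPM in posterior replicates 1, 2 and 3. The lowest posterior library was over 2 times the highest anterior library, and anterior replicate 3 was the highest of its region, as it was for Msx1. The fitted level was 4.14-fold higher in the posterior palate (log2 fold change 2.05 ± 0.25 SE, edgeR adjusted p = 0.0032). Both Msx calls held under each of the 17 alternatives that gave a value.

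Because both genes were read from the same library, their ratio does not depend on library size. The log2 ratio of Msx1 to Msx2 reads was 5.01, 5.32 and 5.27 in the anterior libraries and -4.03, -4.27 and -4.39 in the posterior libraries. Msx1 reads thus outnumbered Msx2 reads in every anterior library and the reverse held in every posterior library. The difference between the regions was -9.43 on the log2 scale with a standard error of 0.14 (exact two-sided permutation p = 0.1, the smallest possible with n = 3 per region, and 0.3 after Benjamini-Hochberg adjustment over the 6 pairs compared). The SD within a region was 0.165 and 0.185.

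**Figure D2:**
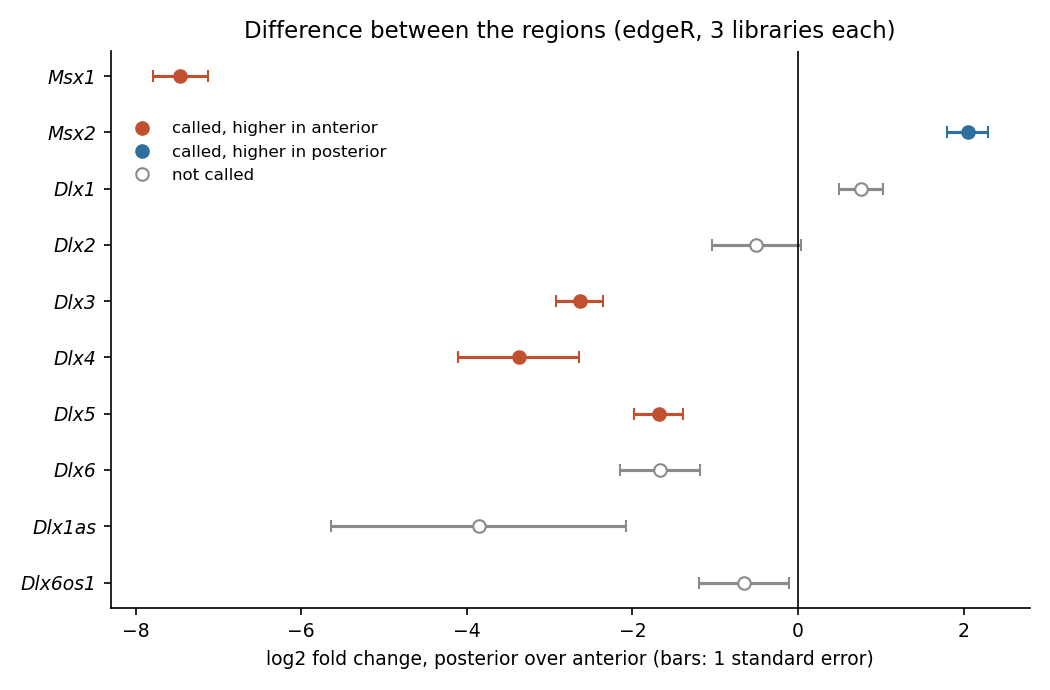
Log2 fold change of posterior over anterior palate for the 10 genes, with bars of 1 standard error from edgeR's fit of 3 libraries per region. Filled points passed an adjusted p-value of 0.05 (red higher in anterior, blue higher in posterior) and open points did not; Msx1 lies at -7.46 and Msx2 at 2.05, and Dlx1as has the widest bar (1.78).

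Dlx1 and Dlx2, the pair on chromosome 2 that acts in the upper jaw and in forebrain interneurons, were not called in either direction. Dlx1 (ENSMUSG00000041911.4) had 20.3, 37.5 and 45.4 CPM in anterior replicates 1, 2 and 3 and 62.3, 50.9 and 61.2 CPM in posterior replicates 1, 2 and 3. Every posterior library was above every anterior library, but the difference did not pass the test (log2 fold change 0.76 ± 0.27 SE, edgeR adjusted p = 0.136). Without a filter on low counts the same difference was called (adjusted p = 0.0294 from edgeR).

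Dlx2 (ENSMUSG00000023391.9) was even among the posterior libraries, at 19.9, 17.6 and 17.35 CPM, and uneven among the anterior ones, at 9.86, 16.3 and 52.1 CPM. Its log2 fold change of -0.50 ± 0.54 (SE, edgeR adjusted p = 0.568) rested on anterior replicate 3 and was 0.48 without it (adjusted p = 0.335). The log2 ratio of Dlx1 to Dlx2 reads was 1.04, 1.20 and -0.20 in the anterior libraries and 1.64, 1.53 and 1.82 in the posterior libraries. Dlx1 was in excess in every library except anterior replicate 3, and the posterior ratios all lay above the anterior ones (difference 0.98, standard error 0.45, exact permutation p = 0.1, adjusted p = 0.3 over 6 pairs). Without anterior replicate 3 the difference was 0.54.

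Dlx1as (ENSMUSG00000084946.4), an antisense transcript, runs on the minus strand of chromosome 2 from 71516454 to 71537891 in M21, across the whole of Dlx1 (71528113 to 71533981, plus strand), and starts 5516 bases away from Dlx2 (71543408 to 71546754), which lies on its own strand. It had 4 and 20 reads in anterior replicates 1 and 2, 1906 reads in anterior replicate 3, and 26, 66 and 68 reads in posterior replicates 1, 2 and 3. In CPM these were 0.304, 1.45 and 165 in the anterior against 1.95, 4.77 and 4.66 in the posterior libraries. A single library thus set the anterior mean, and its value was 34.6 times the highest of the other 5. The log2 fold change was -3.86 ± 1.78 (SE, edgeR adjusted p = 0.226) with that library and 2.09 (adjusted p = 0.191) without it, so no direction is given.

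The same excess in anterior replicate 3 appeared when the reads at this locus were split by strand. On the strand opposite to Dlx1, anterior replicate 3 had 1755 reads, whereas the other libraries had between 4 and 64. Reads on bases that both genes cover enter this count and that of Dlx1as. In anterior replicate 3, Dlx1as had 1906 reads on its own strand but 178 in the unstranded count, which drops reads shared between genes. Most of the 1755 reads are therefore the same reads as those of Dlx1as and not a separate signal. The exons of the 2 genes share 335 bases in M21, and their overlap in the annotation used for counting is not given. On the strand of Dlx1 itself anterior replicate 3 had 525 reads, within the range of 267 to 893 of all libraries. Reads antisense to Dlx1 made up 77.0% of the reads on both strands in anterior replicate 3 and between 1.48% and 8.33% in the others, where the median gene had between 0.508% and 0.982% of its reads on the other strand. In the unstranded count, reads that fall on overlapping genes are lost, and this count held between 44.2% and 86.4% fewer reads at Dlx1 and between 90.5% and 95.8% fewer at Dlx1as than the strands summed. The log2 fold change of Dlx1 kept its direction with the unstranded counts.

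**Figure D3:**
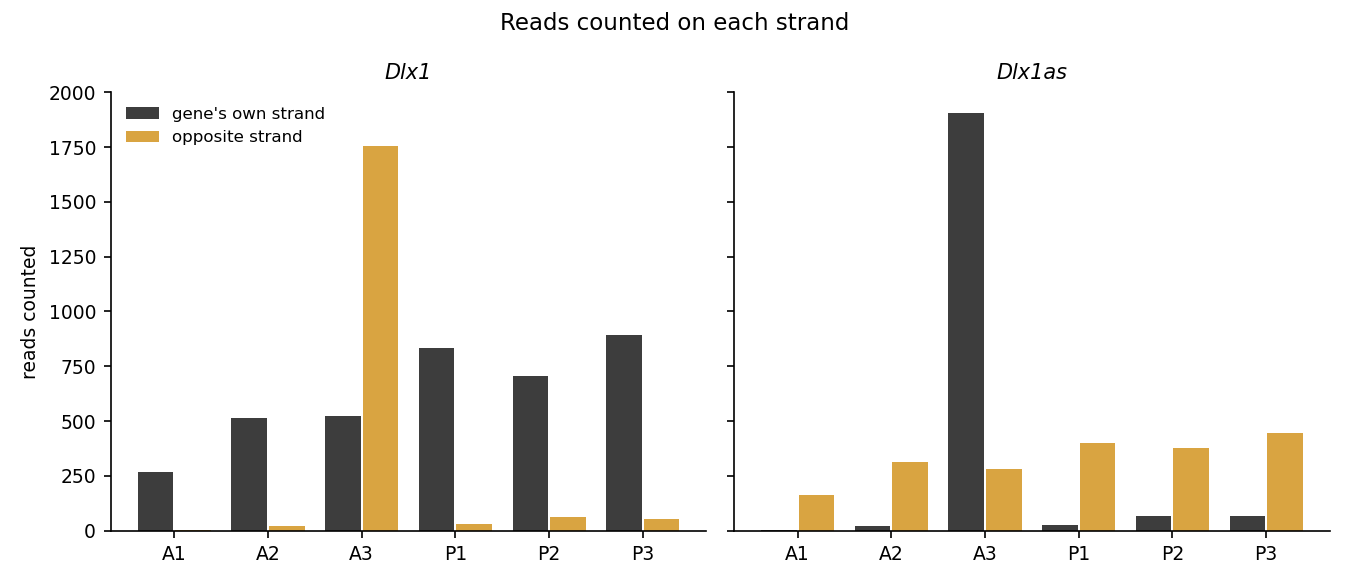
Reads counted on each gene's own strand (dark) and on the opposite strand (yellow) at Dlx1 and Dlx1as in the 6 libraries. In A3 the reads opposite to Dlx1 (1755) and those on Dlx1as (1906) stand far above the other libraries, whereas reads on Dlx1 itself do not.

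Anterior replicate 3 also stood apart at other genes. Genes were ranked by the ratio of their CPM in this library to the highest of the others, among 10614 genes kept by a minimum count in this library itself. Dlx1as ranked 2, after Fgf3 (35.0), a growth factor of tooth epithelium and dental mesenchyme, and Dlx2 ranked 18 (2.62) and Msx1 50 (1.54). Dlx1as and Fgf3, with at most 68 and 9 reads in any other library, entered this ranking only through anterior replicate 3. Their ranks are therefore descriptions. Of the 10 genes of a dental mesenchyme list, 6 were highest of all libraries in anterior replicate 3, and their summed CPM was 576 and 671 in anterior replicates 1 and 2, 1143 in anterior replicate 3 and 690 to 962.5 in the posterior libraries. Tfap2b, a transcription factor of this tissue, had 1.97, 15.4 and 117 CPM in the anterior libraries and at most 3.61 CPM in the posterior ones. The part of these cells in the values of Dlx2, Dlx1as and Msx1 was not tested.

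Dlx3 and Dlx4, the pair on chromosome 11, were both called as higher in the anterior palate. Dlx3 (ENSMUSG00000001510.9, chromosome 11, 95120119 to 95125296, plus strand), which acts in teeth, hair and bone, had 73.9, 66.1 and 56.5 CPM in anterior replicates 1, 2 and 3 and 8.83, 7.01 and 15.7 CPM in posterior replicates 1, 2 and 3. The lowest anterior library was over 3 times the highest posterior one. The fitted level was 6.21-fold higher in the anterior palate (log2 fold change -2.64 ± 0.29 SE, edgeR adjusted p = 0.00209), and the call held under all 17 alternatives.

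Dlx4 (ENSMUSG00000020871.9, chromosome 11, 95140447 to 95146263, minus strand) was near the limit of detection, with 28, 14 and 36 reads in anterior replicates 1, 2 and 3 and 0, 5 and 3 reads in posterior replicates 1, 2 and 3. The count of 0 allows up to 3 reads. Summed over a region these were 78 against 8 reads, a ratio of 10.6 after normalization (95% exact interval 5.11 to 25.4, counting error only). The libraries did not overlap, and the difference was called (log2 fold change -3.37 ± 0.73 SE, edgeR adjusted p = 0.0338). The call was lost without posterior replicate 2 (edgeR adjusted p = 0.0739) or posterior replicate 3 (0.114), and with any one anterior replicate left out Dlx4 fell below the filter of 10 counts in 3 libraries, which it passed only through the anterior libraries, where it was high. Of its reads, between 12.2% and 17.65% in the anterior libraries lay on the other strand. The log2 ratio of Dlx3 to Dlx4 reads was 5.08 ± 0.90 in the anterior against 6.01 ± 1.87 in the posterior palate (SD, n = 3), ranges that overlap (exact permutation p = 0.5, adjusted p = 0.75 over 6 pairs).

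Dlx5 and Dlx6, the lower-jaw pair on chromosome 6, were both higher in every anterior library. Dlx5 (ENSMUSG00000029755.11, chromosome 6, 6877805 to 6882085, minus strand), which also acts in osteoblasts, had 50.7, 51.9 and 26.5 CPM in anterior replicates 1, 2 and 3 and 9.43, 14.5 and 16.2 CPM in posterior replicates 1, 2 and 3. It was called (3.21-fold higher in the anterior palate, log2 fold change -1.68 ± 0.30 SE, edgeR adjusted p = 0.016). The call was lost without anterior replicate 1 (edgeR adjusted p = 0.0683), anterior replicate 2 (0.0718) or posterior replicate 2 (0.0689), while the log2 fold change stayed between -1.94 and -1.49 with any one library left out.

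Dlx6 (ENSMUSG00000029754.14, chromosome 6, 6863334 to 6868568, plus strand) had 20.03, 17.8 and 10.6 CPM in the anterior libraries and 1.65, 7.59 and 6.03 CPM in the posterior libraries. Its log2 fold change was nearly that of Dlx5 (-1.66), but the posterior libraries spread over a 4.61-fold range, the standard error was 0.48 and the difference was not called (adjusted p = 0.088 from edgeR). It was called without posterior replicate 1 (-1.25, edgeR adjusted p = 0.00708), the lowest library. The log2 ratio of Dlx5 to Dlx6 reads was 1.40 ± 0.13 in the anterior against 1.61 ± 0.80 in the posterior palate (SD, n = 3) and overlapped between the regions (difference 0.22, standard error 0.47, exact permutation p = 0.8, adjusted p = 0.9 over 6 pairs).

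Dlx6os1 (ENSMUSG00000090063.8, 6820189 to 6871592) spans 51404 bases on the strand opposite to Dlx6 and covers that gene whole, with no shared exon bases in M21. It had 22, 49 and 51 reads in anterior replicates 1, 2 and 3 and 13, 51 and 21 reads in posterior replicates 1, 2 and 3. These values overlapped and were not called (log2 fold change -0.65 ± 0.54 SE, edgeR adjusted p = 0.466). The log2 ratio of Dlx6 to Dlx6os1 reads was 3.56, 2.31 and 1.26 in the anterior against 0.74, 1.03 and 2.04 in the posterior libraries (difference -1.11, standard error 0.77, exact permutation p = 0.2, adjusted p = 0.4 over 6 pairs). The library with most Dlx1as reads did not stand apart at Dlx6os1. Reads antisense to Dlx6 were at most 14 in any library.

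Levels of different genes were compared per length, as CPM per kilobase of annotated exons. In the anterior palate the order was Msx1 (65.9), Dlx3 (25.1), Dlx5 (19.0), Dlx2 (9.13), Dlx6 (6.81), Dlx1 (6.38), Msx2 (1.66) and Dlx4 (0.638). Of these 8 coding genes Msx1 was the highest in each anterior library, and neighbours from Dlx3 to Dlx1 in this order overlapped. In the posterior palate the order was Dlx1 (10.8), Msx2 (6.84), Dlx2 (6.41), Dlx5 (5.91), Dlx3 (4.03), Dlx6 (2.14), Msx1 (0.371) and Dlx4 (0.0578). Here neighbours from Msx2 to Dlx6 overlapped, while Dlx1 was the highest coding gene and Dlx4 the lowest in each library.

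The summed level per length of the 8 coding members was 134.6 ± 22.2 CPM per kilobase in the anterior against 36.5 ± 3.93 in the posterior palate (SD, n = 3). Msx1 held 48.0 ± 8.54% of the sum in the anterior against 1.02 ± 0.192% in the posterior palate. Msx2 went from 1.22 ± 0.162% to 18.7 ± 3.39%, and Dlx1 from 4.64 ± 1.20% to 29.8 ± 5.14%. The shares of Dlx5 (14.8 ± 6.52% and 16.0 ± 2.75%) and Dlx6 (5.31 ± 2.28% and 5.71 ± 3.32%) overlapped between the regions although the levels of both did not. With unstranded counts the Dlx1 share was over 1.5 times lower in both regions (2.63% for the anterior libraries), and in the posterior libraries it was 19.5%, below that of Msx2 (21.96%). A share depends on every other member, so it is given as a description with no test.

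**Figure D4:**
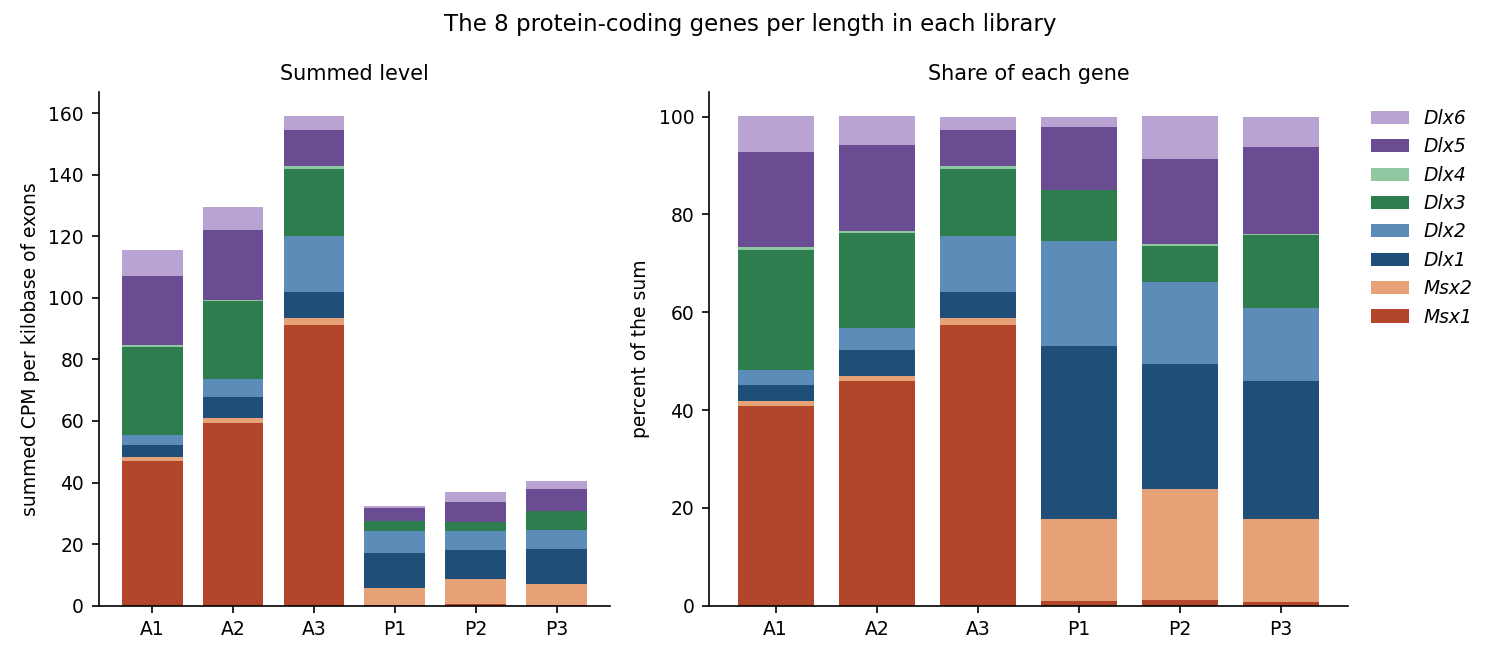
Level per length of the 8 coding genes in the 6 libraries, stacked as CPM per kilobase of exons (left) and as the percent of their sum (right). Msx1 makes up 40.7% to 57.4% of the sum in the anterior libraries (A1 to A3) and 0.823% to 1.21% in the posterior libraries (P1 to P3), where Dlx1 and Msx2 hold larger shares.

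BMP signalling, the pathway that induces Msx genes, was followed with a list of 22 ligands, receptors, Smads, Id genes and antagonists, all of them tested. Of these, 2 were called as higher in the anterior palate and 3 in the posterior palate, 17 were not called, and the median log2 fold change was 0.17 against -0.004 over all genes. The number called depended on the libraries and the tool. It was 15 without posterior replicate 1, 2 or 3 without anterior replicate 1 or 2 or posterior replicate 2 or 3, and 8 with DESeq2. The ligand genes Bmp2 (-0.40), Bmp4 (0.25) and Bmp7 (0.17) were not called, and neither was any of the Id genes, direct targets of the pathway, at log2 fold changes from -0.24 to 0.35. Called higher in the anterior palate were Smad6, an inhibitory Smad (log2 fold change -0.76, edgeR adjusted p = 0.0123), and Bambi, a decoy receptor (-0.98, adjusted p = 0.0191). Called higher in the posterior palate were Grem1, a secreted BMP antagonist (2.62, edgeR adjusted p = 0.00229), the receptor gene Bmpr1b (1.53, adjusted p = 0.005) and the ligand gene Bmp5 (1.21, adjusted p = 0.0413). Grem1 and Bmpr1b were called under all 17 alternatives. The call of Bmp5 was lost without anterior replicate 2 or 3 or posterior replicate 2 or 3 (edgeR adjusted p = 0.135 to 0.175) and with limma-voom (0.0518), unstranded counts (0.0502) or the replicate block (0.0953). With a term for posterior replicates 2 and 3, which leaves posterior replicate 1 alone against the anterior palate, its log2 fold change was 0.67. The call was lost for Smad6 without anterior replicate 1 or 2 or posterior replicate 3, and for Bambi without anterior replicate 1 or 2 or posterior replicate 2.

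Of 11 genes that act around Dlx in jaw patterning, 9 were tested and 3 were called, all higher in the posterior palate (5 without posterior replicate 1 and 1 without posterior replicate 2). Nkx3-2, a gene of the jaw joint, had 1, 3 and 1 reads in the anterior against 22, 23 and 26 reads in the posterior libraries (adjusted p = 0.00276 from edgeR). It entered the test only through the posterior libraries, where it was high, and had no value with a posterior library left out. Gsc had a log2 fold change of 1.39 (edgeR adjusted p = 0.00489) and Barx1 one of 1.84 (adjusted p = 0.0348). Barx1 lost its call without anterior replicate 1 or 2 or posterior replicate 2 or 3. Upstream of Dlx5 and Dlx6 in the arch, Edn1 (log2 fold change -0.52) and its receptor gene Ednra (0.42) were not called, and Hand2, a target of Dlx5 and Dlx6, had 0.606 to 0.7998 CPM in the anterior libraries and 3.52, 14.2 and 0.274 CPM in the posterior libraries. The posterior values of Hand2 thus spanned those of the anterior palate.

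Cell types known to express Msx or Dlx genes were followed with marker lists. Prrx1, Twist1, Osr2, Pax9, Pdgfra and Col3a1, genes of palatal mesenchyme, were present in all libraries with a summed CPM of 4499 to 8554, and 1 of the 6 (Prrx1) was called as higher in the anterior against 3 (Twist1, Pdgfra and Col3a1) in the posterior palate. Of 9 dental mesenchyme genes tested, Lhx6 and Lhx8 were called as higher in the anterior and Barx1 in the posterior palate. All 3 calls were lost without anterior replicate 2 or posterior replicate 2, 1 gene was called without anterior replicate 3 or posterior replicate 3, 5 were called without posterior replicate 1 or with the length correction, 6 with DESeq2 and 7 without a filter. In osteoblasts, where Dlx3, Dlx5 and Dlx6 act, 2 of 9 tested markers were called as higher in the anterior palate (Dmp1 and Ifitm5) and the median log2 fold change was -1.35. Both calls were lost with the replicate block and without any one anterior replicate or posterior replicate 2. Without anterior replicate 3, 1 other gene of the list was called, and 1 gene was called where every library had to reach 10 counts. In the other direction, 5 were called without posterior replicate 3, 6 without posterior replicate 1, without a filter or with DESeq2, and 7 with posterior replicate 1 alone against the anterior libraries. The call of Dmp1 was lost without any one library other than posterior replicate 1. Sp7, the osteoblast transcription factor, had 232, 265 and 123 CPM in the anterior against 48.7, 67.2 and 121 CPM in the posterior libraries, the same order of libraries as for Dlx5, and Ibsp had 2692, 2022 and 1403 CPM against 17.9, 143 and 1279 CPM. Col1a1, the most abundant gene of the list, went the other way without overlap. It had 5092, 4212 and 3901 CPM in the anterior against 6387, 7386 and 9906 CPM in the posterior libraries. It was not called (log2 fold change 0.84, edgeR adjusted p = 0.0503). The summed CPM of the list was 8725, 7171 and 5911 in the anterior against 6685, 7900 and 11770 in the posterior libraries. Of the 10 genes of this list, 8 were lowest of the anterior libraries in replicate 3, as were Dlx3, Dlx5 and Dlx6. The part of osteoblasts in the values of the Dlx genes was not tested.

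Of 7 genes of enamel epithelium, where Msx2 and Dlx3 act, 3 were tested, and of these Ambn and Shh were called as higher in the anterior palate. The enamel genes Amelx, Mmp20, Enam and Odam were too low to be tested, with at most 0, 1, 7 and 12 reads in any library. Of 10 oral epithelial markers, 1 was called (Trp63, -0.65, adjusted p = 0.00948 from edgeR, higher in the anterior palate). Forebrain interneurons, the best-known site of Dlx1, Dlx2 and Dlx6os1, were also followed. Of their genes, Sp8 and Lhx6, which the dental list also holds, were called as higher in the anterior palate. Their defining genes Gad1, Gad2 and Slc32a1 had at most 0.692 CPM in any library. All 10 skeletal muscle genes were called as higher in the posterior palate, with a summed CPM of 10.4 to 13.15 in the anterior against 583 to 1031 in the posterior libraries. Of these, Myf5, Myod1 and Mymk passed the filter on low counts only through the posterior libraries and Sp8 only through the anterior ones. Emx2, a gene of olfactory and nasal epithelium that passed the filter only through the posterior libraries, was called as higher in the posterior palate, and of 5 glial genes Erbb3 was called as higher in the posterior palate. Several of these calls depended on 1 library. The calls of Pdgfra, Col3a1 and Erbb3 were lost without any one library other than posterior replicate 1, and that of Ifitm5 without any anterior library or posterior replicate 2. Those of Lhx6 and Shh were lost without anterior replicate 2 or 3 or posterior replicate 2, and that of Lhx8 without these or posterior replicate 3. That of Trp63 was lost without anterior replicate 1 or 3 or posterior replicate 2 and that of Twist1 without anterior replicate 1 or 2. The part of these cell types in the values of Msx2 and Dlx1 was not tested.

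**Figure D5:**
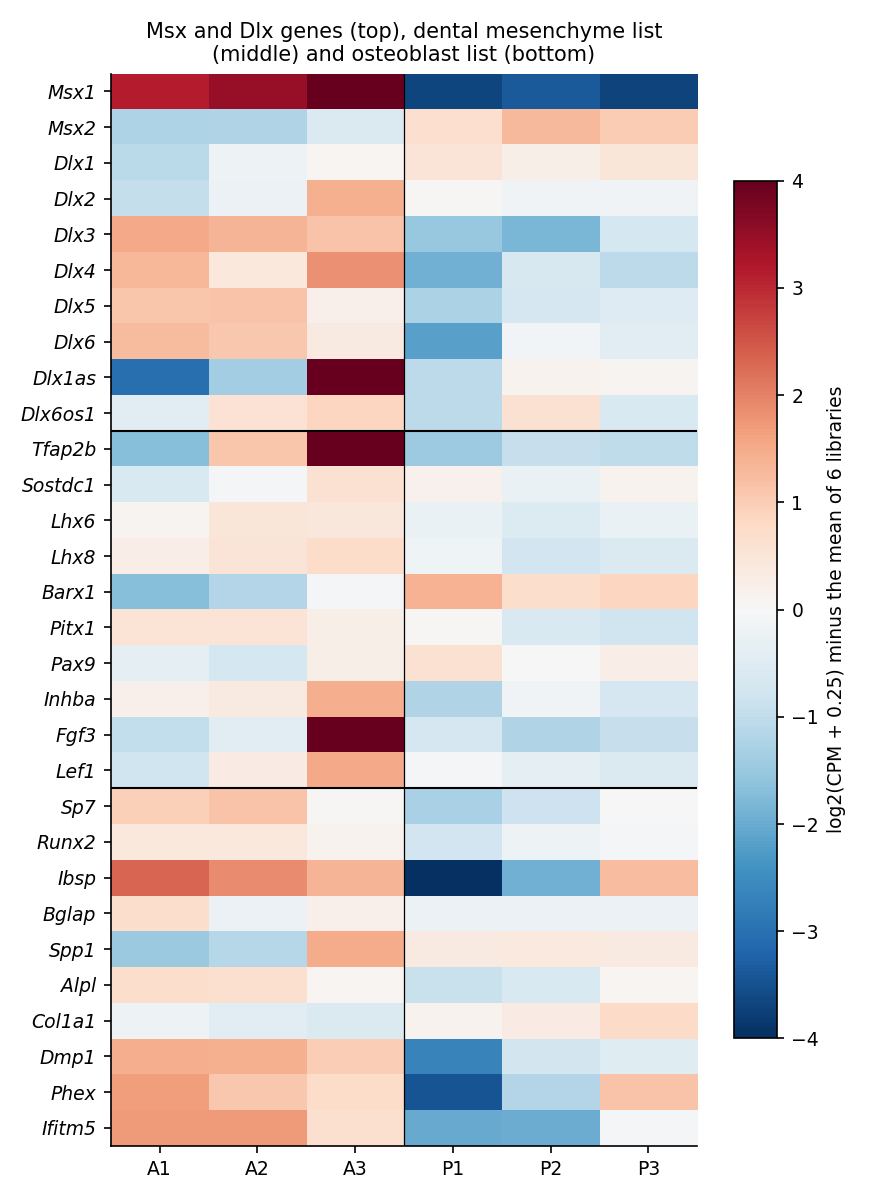
Log2(CPM + 0.25) minus the mean of the 6 libraries for the 10 Msx and Dlx genes (top), the 10 genes of the dental mesenchyme list (middle) and the 10 of the osteoblast list (bottom); colours end at -4 and 4. Dlx1as, Tfap2b and Fgf3 are high in A3, and Dlx5, Dlx6, Sp7 and Ifitm5 are lower in A3 than in A1 and A2.

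Of the 20 nearest protein-coding genes, 2 on each side of each locus, 18 were tested and 1 was called. This was Stx18, a membrane fusion gene 214 kilobases from Msx1 (log2 fold change -0.71, edgeR adjusted p = 0.0425), against -7.46 for Msx1 itself, and its call was lost without any one library other than posterior replicate 1. Metap1d, which ends 2919 bases from Dlx1, had a log2 fold change of -0.15 (adjusted p = 0.435 from edgeR). Cytl1 had at most 7 reads in any library and Tac4 none, and neither was tested.

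Among 12421 other genes with a mean of at least 50 counts, those with the most similar profile over the 6 libraries were found for each called member, with likeness given as the root-mean-square difference of centred log2 CPM. For Msx1 the nearest were Alx1 (0.99), Ambn (1.16) and Shox2 (1.18), which were called as higher in the anterior palate at log2 fold changes of -5.36, -6.00 and -5.04. For Msx2 they were Slc4a8 (0.077), Hic1 (0.122) and Ank1 (0.167). Dlx3 had Lrrc55, Pcolce2 and Lrfn5 as its nearest genes (0.328 to 0.342), and Dlx4 had Cldn11, Cyp1b1 and Cxcl14 (0.51 to 0.518). Sp7 (0.246) and Fzd5 (0.263) were among the genes nearest to Dlx5, and neither was called. These are descriptions over 6 libraries that share the split into regions.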

How the data were processed

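The 6 bulk RNA-seq libraries were grouped by the palate region in their labels, 3 per region. What the authors deposited were raw read counts, by gene and library, unstranded and for each strand, in the layout that STAR writes, although the study's methods name HISAT2 (mm10), StringTie and DESeq2 1.30.1. The annotation version is not given in the sources used here. The reverse-stranded counts, 18.95 to 23.1 times those of the other strand, were used. Symbols, lengths and positions came from GENCODE M21 (GRCm38), which gave a symbol to 91.9% of identifiers, version dropped.

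Genes that reached 10 counts in 3 or more libraries entered the test in edgeR 4.0.16 (TMM, quasi-likelihood, Benjamini-Hochberg, threshold 0.05; R 4.3.3), with region as the only term. Pairs were compared by exact permutation of log2 count ratios (pseudocount 0.5 counts). Tested on simulated data for this comparison, the fit recovered 100 of 100 changes of 4-fold and 83 of 100 of 2-fold with 5 false calls among 15441 genes. The changes were placed only in genes with a mean of at least 50 counts, which Dlx4 and Dlx6os1 do not reach. Simulated libraries were independent, without the distance of posterior replicate 1 from replicates 2 and 3. The rates do not cover those genes or that distance. Within a region, libraries differed beyond sampling noise (chi-square per gene 3.73 to 68.0).

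All members were named, with at most 6 genes per list (called genes first), the neighbours of each locus and the 3 nearest profiles of each called member, whereas genes high in anterior replicate 3 were chosen after values were seen. The members and lists were chosen with earlier results of these data known. Alternatives were DESeq2 1.42.0, limma-voom (limma 3.58.1), RLE, library size only, other filters, unstranded counts, a replicate block, a term for the 2 libraries with fewer multiply mapped reads, a transcript length correction, another pseudocount and gene length, and each library left out. Some genes of these lists and 1 coding stretch are not reported here.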

Additional observations from a re-analysis of the deposited data

Results flagged for a closer look

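Counts on the opposite strand, which no comparison between the regions used, held reads at 9 of the 10 members above the limit of 3 counts that a count of 0 allows. The highest count in any library was 1755 at Dlx1 and 33 at Msx1, both in anterior replicate 3. The 1755 reads at Dlx1 lie on the strand of Dlx1as, whose own count holds most of them. At Dlx1as the highest count was 446, in posterior replicate 3, and Dlx1 lies on that strand. The other highest counts were 14 at Dlx6, 12 at Msx2, 7 at Dlx5, 5 at Dlx3, 5 at Dlx4 and 4 at Dlx2. Reads on the opposite strand made up between 4.15% and 5.01% of all reads counted on either strand, and the 33 reads at Msx1 were 1.00% of the reads on both strands of that gene.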

How the results depend on the processing

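Msx1, Msx2 and Dlx3 kept their direction and their calls under each of 17 alternatives, and no call of a member turned direction. The number of genes called was 1978 with DESeq2, 2162 without a filter on low counts, and 498 to 7119 with each library left out. Members called numbered 3 to 6 with each library left out, 2 to 5 of them higher in the anterior palate, and 2 were higher in the posterior palate without a filter. The library-group term, which holds posterior replicates 2 and 3, and leaving out these 2 libraries, an alternative chosen after seeing the data, both set posterior replicate 1 alone against the anterior libraries, and the lone library is assumed to vary like the others. Their values therefore describe that library and are no separate checks. Genes of the lists called fell to 22 where every library had to reach 10 counts and were 17 to 57 with each library left out. Neighbours called numbered 3 with DESeq2, without a filter or with the length correction, 2 with library size only, 0 with the replicate block, the library-group term or posterior replicates 2 and 3 left out, and 0 to 8 with each library left out.

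Dlx1 was called without a filter (0.76). Dlx4 was no longer called with limma-voom (-3.63, adjusted p = 0.0524) or with the replicate block (-3.34, adjusted p = 0.0678 in edgeR), and ranged from -4.16 to -2.82 with each posterior library left out. With posterior replicate 1 alone, at a count of 0, the fitted value was -7.79 with the library-group term and -7.74 with posterior replicates 2 and 3 left out, and such values depend on the prior count. Dlx6 was called with DESeq2 or without a filter (-1.67 in both). With posterior replicate 1 alone (22 reads) it was at -3.29 both with the library-group term and with posterior replicates 2 and 3 left out. With each library left out, log2 fold changes ranged from -1.94 to -1.49 for Dlx5, from -2.06 to -1.25 for Dlx6, from -0.90 to 0.48 for Dlx2 and from -4.45 to 2.09 for Dlx1as. With a pseudocount of 3 counts the difference in log2 ratio was -9.18 for Msx1/Msx2 and -0.22 for Dlx3/Dlx4, which changed sign. With each library left out it ranged from -0.001 to 1.86 for Dlx3/Dlx4, from -0.22 to 0.56 for Dlx5/Dlx6 and from -1.25 to 2.63 for Dlx1/Dlx1as. The cause of these shifts was not tested.

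Among neighbours, which were not called, signs changed for Nsg1 (0.12 with the library-group term, 0.047 with the length correction, 0.12 with posterior replicates 2 and 3 left out, -0.088 to 0.052 with each library left out), Ror2 (-0.13 with the library-group term and with posterior replicates 2 and 3 left out, -0.13 to 0.19), Drd1 (-0.79 with the library-group term), Sem1 (0.016 with the library-group term, 0.014 with posterior replicates 2 and 3 left out), Pdk1 (-0.20 to 0.14) and Sdhaf3 (-0.22 to 0.046).

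The replicate numbers did not pair the libraries (correlations of deviations of -0.053, 0.045 and 0.036). With the replicate number as a block, 829 genes and 4 members were called, Dlx4 being the member lost. Depth limits Dlx4, Dlx1as and Dlx6os1, and Msx1 in the posterior palate, to few reads per library. Where every library had to reach 10 counts Dlx4 and Dlx1as have no value, and DESeq2 gave Dlx1as no adjusted p-value.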
